A study of Drosophila melanogaster with 6 samples.

Results

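Pvr encodes the receptor tyrosine kinase of Drosophila that is related to the vertebrate PDGF and VEGF receptors, and Pvf1, Pvf2 and Pvf3 encode its 3 ligands. These 4 genes, of 13943 features in the deposited tables, were described across 6 RNA-seq libraries of unfertilized Drosophila melanogaster eggs. They were taken by gene identifier (FBgn0032006, FBgn0030964, FBgn0031888 and FBgn0085407) and were chosen by the difference of Pvr in estimated counts and TPM between the 2 transgenes, so their own differences are given as a description with no test. In 3 biological replicates the mothers carried MTD>MEK_F53S, a transgene for MEK with the gain-of-function change F53S, and in 3 others MTD>MEK, the wild-type kinase. Both constructs were inserted at the same genomic location and expressed through MTD-GAL4, a driver active in the maternal germline, and all mothers had been mated to sterile males. Eggs aged 0 to 30 min were pooled for each library. The groups are thus 2 fly lines, and an effect of the change in MEK cannot be told apart from one of the line. In pooled eggs, more transcript per egg and more eggs that carry a transcript cannot be told apart either.

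As background, Pvf ligands are secreted growth factors with a cystine knot, and binding to Pvr activates the kinase in its cytoplasmic part. Pvr then signals through RAS and ERK, through the guanine nucleotide exchange factor Mbc with Ced-12 to Rac, and through PI3K, and in some tissues through JNK. In the ovary Pvr is best known in border cells, the migrating follicle cells that read Pvf1 made by the oocyte, and it also acts in the survival and migration of blood cells. MEK is the kinase that phosphorylates ERK, downstream of RAS and Raf, and Dsor1 is its fly gene.

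Libraries held between 37224814 and 48485330 estimated counts with MEK F53S and between 37342085 and 48756311 with wild-type MEK. Dsor1, the fly MEK gene, ranged from 2398 to 3306 TPM (transcript share per length, scaled to a fixed total) with MEK F53S. With wild-type MEK it ranged from 2329 to 3177 TPM. Both groups express a MEK transgene whose reads may be counted here, so this level does not check the labels. It may not be the level of the endogenous gene alone. Of 7539 genes with enough counts to be tested, 1900 were called (quasi-likelihood test of edgeR, Benjamini-Hochberg adjusted p under 0.05), which is 25.2%. The higher calls in MEK F53S were 12.3% of tested genes and the lower calls 12.9%. Without MEK F53S replicate 1 or 3 or wild-type MEK replicate 2 or 3, higher calls numbered 512, 495, 423 and 474 in place of 930, and lower calls 563, 506, 592 and 642 in place of 970. The 3 MEK F53S libraries all lay above the 3 wild-type MEK libraries for 21.2% of tested genes, and all below them for another 21.2%.

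Pvr lies on chromosome arm 2L, from 8220980 to 8239878 on the minus strand in dm6, and has 13 annotated transcripts of 5149 to 5893 bases from 3 start sites. It received 4132, 5995 and 6900 estimated counts in MEK F53S replicates 1, 2 and 3, against 51, 46 and 44 in wild-type MEK replicates 1, 2 and 3. After scaling for depth this was 102, 124 and 130.5 CPM (counts scaled to library size with TMM factors) in MEK F53S, against 1.12, 1.35 and 1.23 CPM in wild-type MEK. All MEK F53S libraries were high and all wild-type MEK libraries low, and the groups did not overlap. The receptor transcript was still above the floor of 3 counts in every wild-type MEK library. Means were 119 ± 15.04 CPM in MEK F53S and 1.23 ± 0.117 CPM in wild-type MEK (SD, n = 3 each), a log2 fold change of 6.59 ± 0.19 (SE), or 96.4-fold. The lowest MEK F53S library stood 75.3-fold above the highest wild-type MEK library. Within groups the highest library exceeded the lowest by 1.28-fold with MEK F53S and 1.21-fold with wild-type MEK. Among the 7539 tested genes the log2 fold change of Pvr ranked 31st from the top.

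Per length, Pvr measured 43.5, 57.7 and 56.9 TPM in MEK F53S replicates 1, 2 and 3, against 0.493, 0.559 and 0.519 TPM in the wild-type MEK replicates. On this scale Pvr stood above 70.6% to 74.9% of all features with MEK F53S and above 48.8% to 48.9% with wild-type MEK. Where it had counts, Pvf3 stood above 43.8% to 46.3% of features at only 0.092 to 0.141 TPM. The wild-type MEK share of Pvr is thus not far above that of a gene close to absent.

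Pvf1, the ligand that the oocyte makes for border cells, lies on X from 18832682 to 18842901 on the plus strand and has 3 annotated transcripts of 1804 to 2783 bases from 1 start site. It was abundant in both groups, with 5802, 8891 and 8088 estimated counts in MEK F53S replicates 1, 2 and 3 and 2948, 3045 and 3355 in wild-type MEK replicates. In CPM this was 143, 183 and 153 with MEK F53S, against 64.5, 89.4 and 93.7 with wild-type MEK. Every MEK F53S library was above every wild-type MEK library, with a gap of 1.52-fold between the nearest pair in CPM and 1.78-fold in TPM. Means were 159.7 ± 21.1 CPM in MEK F53S and 82.5 ± 15.8 CPM in wild-type MEK (SD, n = 3 each), a log2 fold change of 0.95 ± 0.17 (SE), or 1.94-fold. Pvr and Pvf1 are the 2 of 4 members whose groups did not overlap. Since this contrast chose the members, nothing is read from that count against the 21.2% of tested genes that separate in the same direction.

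Pvf2 and Pvf3, the other 2 ligand genes, were close to absent and did not separate the groups. They are neighbours on 2L, Pvf2 from 7069536 to 7084635 and Pvf3 from 7098188 to 7157695, both on the minus strand, with 13552 bases between them and 1063284 bases between Pvf3 and Pvr. Pvf2, a ligand known for raising blood cell numbers when overexpressed, had 0, 0 and 24 estimated counts in MEK F53S replicates 1, 2 and 3, against 11, 0 and 0 in wild-type MEK replicates. Pvf3, which overlaps with Pvf2 in guiding blood cells, had 9, 17 and 0 counts with MEK F53S, against 11, 0 and 9 with wild-type MEK. Each gene was thus at 0 in at least 1 library of both groups, and the groups overlapped. A count of 0 allows up to 3 counts, which is 0.0567 to 0.0738 CPM in a MEK F53S library and 0.0657 to 0.0881 CPM in a wild-type MEK library, counting error only. Neither gene passed the filter on low counts, so no fold change is given, and a difference between the groups was not detectable at this depth.

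**Figure D1:**
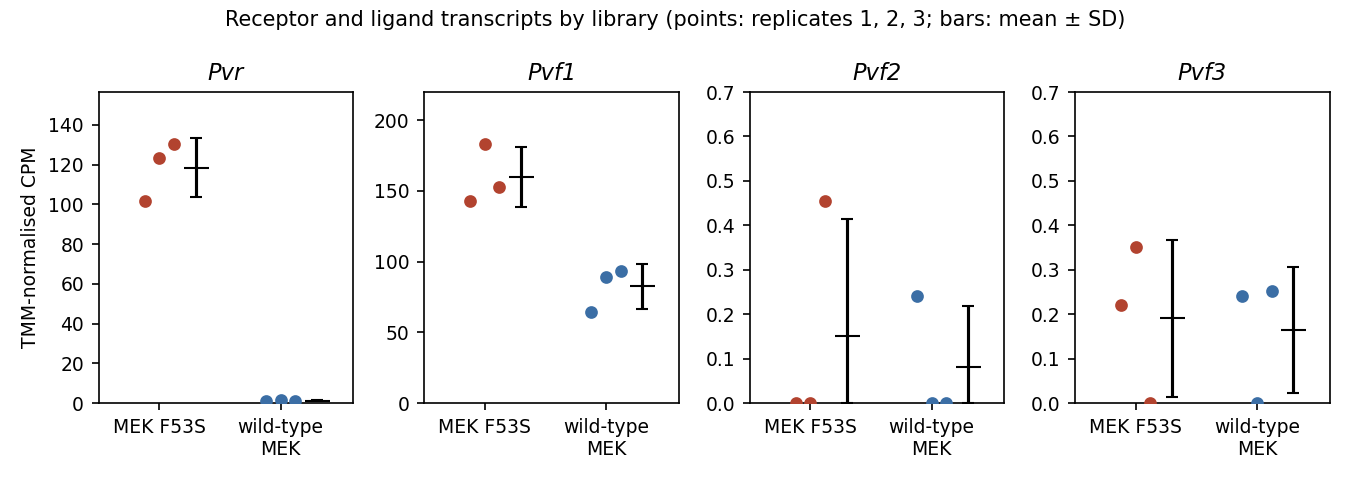
TMM-normalised CPM of the receptor gene and its 3 ligand genes in each library, with MEK F53S on the left and wild-type MEK on the right of each panel; points are replicates 1, 2 and 3 in order, bars are the mean ± SD, cut at 0, and each panel has its own linear scale. Pvr runs from 102 to 130.5 CPM against 1.12 to 1.35 CPM, Pvf1 from 143 to 183 CPM against 64.5 to 93.7 CPM, and Pvf2 and Pvf3 stay under 0.5 CPM in all libraries.

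The ratio of receptor to ligand transcript lay far apart between the groups. Per length, Pvf1 exceeded Pvr by 2.58, 2.49 and 2.07 times in MEK F53S replicates 1, 2 and 3, against 97.3, 104 and 121 times in wild-type MEK replicates. Pvr made up 29.7 ± 2.47% of the summed TPM of the 4 genes in MEK F53S eggs and 0.926 ± 0.0996% in wild-type MEK eggs (SD, n = 3 each), and Pvf1 made up nearly all of the rest. The ligand transcript was the larger one in all 6 libraries. These ratios follow from the levels above and were not tested.

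The lengths behind these values needed care. For genes with 1 annotated transcript, the product of TPM and deposited effective length per estimated count was 1 constant in each library for at least 99.8% of those with 200 or more counts, within 1%. For 93.0% to 94.9% of genes with several transcripts it fell below that constant, so their deposited effective lengths are too short for their own TPM and counts. Pvr was deposited with 747, 597 and 583 bases in the MEK F53S libraries and with 3672, 385 and 3674 bases in the wild-type MEK libraries. The effective lengths that its counts and TPM require were 4186, 4179.5 and 4204.5 bases with MEK F53S, against 3672, 3464 and 3674 bases with wild-type MEK. For Pvf1 the required lengths were 2279, 2492 and 2378 bases with MEK F53S, against 2182, 2196 and 2311 bases with wild-type MEK. The required length of Pvr was longer with MEK F53S in every library. The ratio of mean TPM between groups was 101, beside the 96.4-fold difference in CPM. The CPM carry TMM factors and the deposited TPM do not, so length alone does not set these ratios apart. With the required lengths as an offset, the log2 fold changes were 6.53 for Pvr and 1.01 for Pvf1. The wild-type MEK lengths of Pvr rest on 44 to 51 counts a library.

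Among receptor tyrosine kinase genes, Pvr was 1 of the few with substantial transcript in MEK F53S eggs. Of 20 receptor genes, including Pvr, 5 averaged at least 1 TPM in MEK F53S eggs and 4 did so in wild-type MEK eggs, and 5 were at 0 in every library. In MEK F53S eggs the order per length was tor, the terminal patterning receptor, at 143 to 167 TPM, then Eph, the ephrin receptor, at 90.9 to 107 TPM, then Pvr at 43.5 to 57.7 TPM and dnt, a Wnt-binding receptor of the Ryk family, at 36.3 to 44.7 TPM, and InR, the insulin receptor, at 17.4 to 25.5 TPM. Pvr and dnt overlapped, while Pvr did not overlap Eph above it or InR below it. In wild-type MEK eggs Pvr, at 0.493 to 0.559 TPM, lay below InR at 11.6 to 12.2 TPM and among Ror, Nrk and Egfr, whose ranges overlapped its own. Pvr held 12.7%, 14.6% and 15.4% of the summed TPM of the 20 receptors in MEK F53S replicates 1, 2 and 3, against 0.134%, 0.157% and 0.143% in wild-type MEK replicates.

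Of 10 other receptor genes tested, 0 rose, 1 fell and 9 did not pass with edgeR, beside 12.3% of all tested genes called higher and 12.9% called lower, with a median log2 fold change of -0.22 beside 0.05 for all tested genes. At an unadjusted p under 0.05, 1 was higher, and with DESeq2 and limma 1 and 0 were called higher. That 1 gene is InR, at 20.1 ± 4.63 TPM in MEK F53S and 11.99 ± 0.349 TPM in wild-type MEK (log2 fold change 0.49 ± 0.16 SE, adjusted p = 0.0501 with edgeR). The fall was that of Eph (log2 fold change -0.67 ± 0.11 SE, adjusted p = 0.00336), which limma on log2(TPM + 1) did not call (-0.45, adjusted p = 0.0592). Egfr, the receptor of the EGF-like ligands, stood at 0.247 ± 0.0681 TPM in MEK F53S and 0.274 ± 0.247 TPM in wild-type MEK. The values of tor were 155 ± 11.97 TPM in MEK F53S and 175 ± 18.4 TPM in wild-type MEK (log2 fold change of counts -0.23, adjusted p = 0.18 with edgeR), and without wild-type MEK replicate 1 its fall was called (-0.34, adjusted p = 0.0303).

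Among receptor tyrosine kinase ligands Pvf1 was the highest or the second highest with MEK F53S and the 3rd or 2nd highest with wild-type MEK, of 23 genes. In MEK F53S eggs it ranged from 112 to 143 TPM and overlapped grk, the ligand sent by the oocyte to Egfr in follicle cells, at 86.5 to 116 TPM. In wild-type MEK eggs Ephrin, the ligand of Eph, was above it at 74.3 to 79.1 TPM, and grk, at 54.2 to 56.2 TPM, lay within the range of Pvf1, 48.0 to 62.9 TPM. Of 8 tested ligand genes of other receptors, 3 rose (spi, Krn and grk), 2 fell (vn and Ephrin) and 3 did not pass, beside 12.3% of all tested genes called higher and 12.9% called lower. Their median log2 fold change was 0.49, beside 0.05 for all tested genes. The genes spi, Krn, grk and vn all encode EGF-like ligands of Egfr, and so moved both ways. The log2 fold changes were 1.47 for spi, 0.85 for Krn, 0.71 for grk, -1.74 for vn and -0.64 for Ephrin (edgeR adjusted p = 0.000601, 0.00226, 0.00715, 0.000689 and 0.00219). The fall of vn in counts was not called by limma on log2(TPM + 1) (-0.63, adjusted p = 0.343) or with the required lengths as an offset (-1.04, adjusted p = 0.222).

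**Figure D2:**
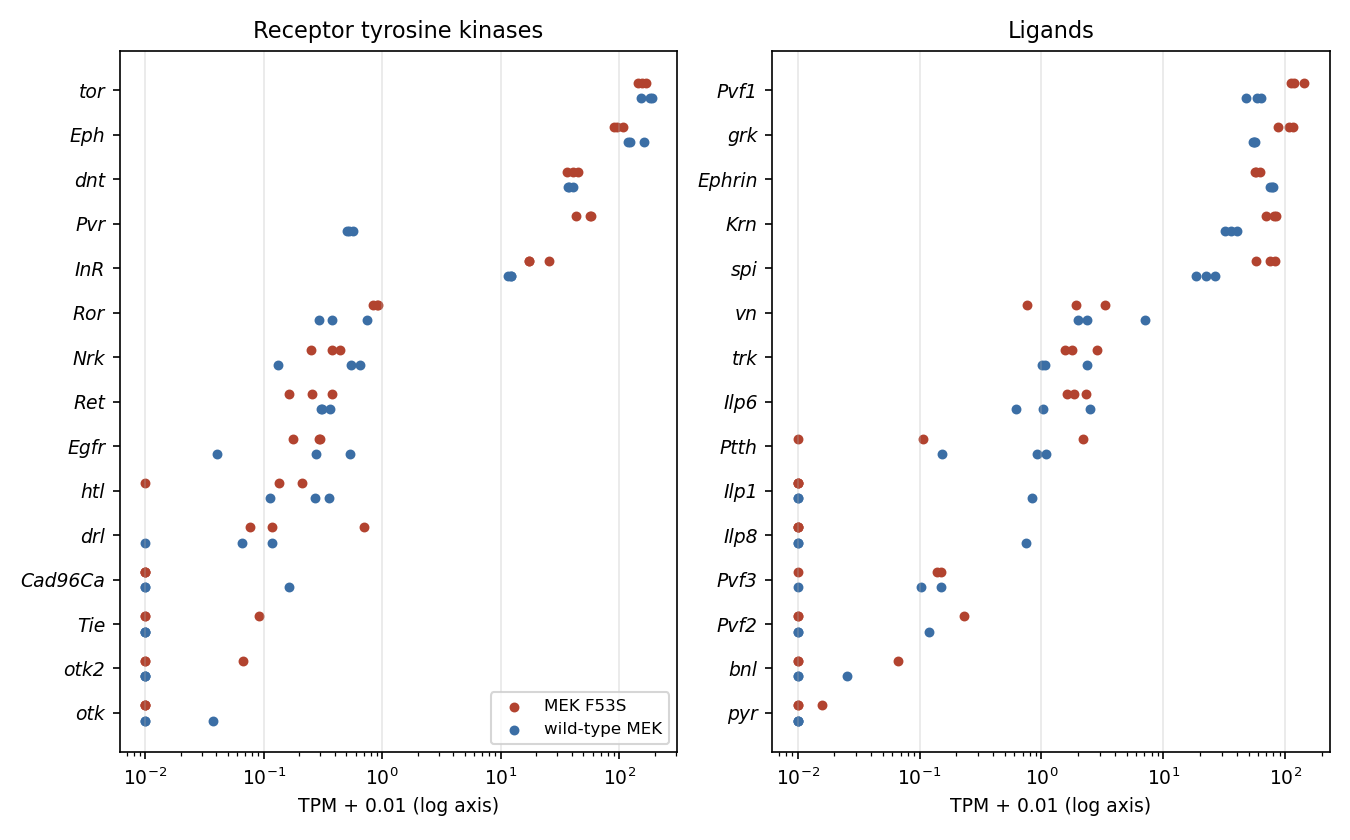
TPM + 0.01 on a log axis for receptor tyrosine kinase genes (left) and their ligand genes (right), ordered by mean level; each point is 1 library, MEK F53S above wild-type MEK in each row, and genes at 0 in all libraries are left out. The 3 MEK F53S points of Pvr, 43.5 to 57.7 TPM, lie beside those of dnt, while its wild-type MEK points, 0.493 to 0.559 TPM, lie beside those of Ror and Nrk.

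Genes that carry signals from the receptor into the cell were detected in all libraries and moved both ways. Of 24 tested genes of the relay to ERK, Rac and PI3K, 4 rose, 5 fell and 15 did not pass with edgeR, beside 12.3% and 12.9% of all tested genes. Their median log2 fold change was -0.09, beside 0.05 for all tested genes. On the PI3K branch Pdk1, the kinase that activates Akt, rose to 612 ± 10.4 CPM with MEK F53S, against 373 ± 27.1 CPM with wild-type MEK (log2 fold change 0.71 ± 0.10 SE, adjusted p = 0.00125 with edgeR). The kinase gene Akt rose by 0.57 on the log2 scale (adjusted p = 0.0373, and 0.0589 with limma on log2(TPM + 1)). On the ERK branch dos, a docking protein of receptor tyrosine kinases, rose by 0.63 (adjusted p = 0.00451) and rl, the ERK gene, fell by 0.70 (adjusted p = 0.00116). On the Rac branch Rac2 rose by 0.54, while Mtl and Rac1, which encode related GTPases, fell by 0.63 and 0.41, and the adaptor gene Crk fell by 0.51 (adjusted p = 0.0088, 0.00387, 0.0298 and 0.0459). How Salmon divided reads between Rac1 and Rac2, which are close relatives, was not checked.

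Several of these calls did not hold with 2 libraries in a group. When each library was left out in turn, Akt and Crk were called only without wild-type MEK replicate 1, with adjusted p up to 0.147 and 0.164 in the other 5 fits. Their log2 fold changes stayed between 0.44 and 0.75 for Akt and between -0.71 and -0.41 for Crk, and in 4 of those fits the calls over all genes also fell, as given above. Rac1 was called only without MEK F53S replicate 2 or wild-type MEK replicate 1, with adjusted p up to 0.118, and Rac2 was lost without wild-type MEK replicate 3 (adjusted p = 0.0537). Rises of the list then numbered 2 without wild-type MEK replicate 3, and its falls 3 without MEK F53S replicate 1 or 3 or wild-type MEK replicate 2 or 3. The falls of Rac1 and Crk were not called by limma on log2(TPM + 1) (-0.17 and -0.22, adjusted p = 0.18 and 0.256) or with the required lengths as an offset (-0.29 and -0.36, adjusted p = 0.0828 and 0.109).

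The JNK cascade and the turnover of receptors each had 2 rises among 9 tested genes, and 7 genes of each list did not pass, beside 12.3% of all tested genes called higher and 12.9% called lower. In the JNK list, puc, the phosphatase gene that JNK signalling induces, stood at 241 ± 24.2 CPM in MEK F53S and 134 ± 21.6 CPM in wild-type MEK (log2 fold change 0.85 ± 0.15 SE, adjusted p = 0.00339 with edgeR). The Fos gene kay stood at 14.9 ± 1.22 CPM in MEK F53S and 8.58 ± 0.463 CPM in wild-type MEK (0.80 ± 0.18 SE, adjusted p = 0.0117). Both were called in all 14 alternatives, and the list had 4 rises without wild-type MEK replicate 1. The median log2 fold change was 0.24 for the JNK list and 0.07 for the turnover list, beside 0.05 for all tested genes. In the turnover list the endosomal genes Vps25, a subunit of the ESCRT-II complex, and Rab5, an early endosome GTPase, rose by 0.68 and 0.44 (adjusted p = 0.033 and 0.0469). Both were called without MEK F53S replicate 2 and lost when any of the other 5 libraries was left out, with adjusted p up to 0.12 and 0.161. Cbl, the ubiquitin ligase for receptor tyrosine kinases, measured 821 ± 54.5 CPM in MEK F53S and 880.5 ± 36.8 CPM in wild-type MEK (log2 fold change -0.10, adjusted p = 0.477). Neither list had a fall with edgeR, with 0 lower genes at an unadjusted p under 0.05 and 0 with DESeq2 or limma, though 1 turnover gene was called lower without wild-type MEK replicate 1. No list was tested as a set.

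**Figure D3:**
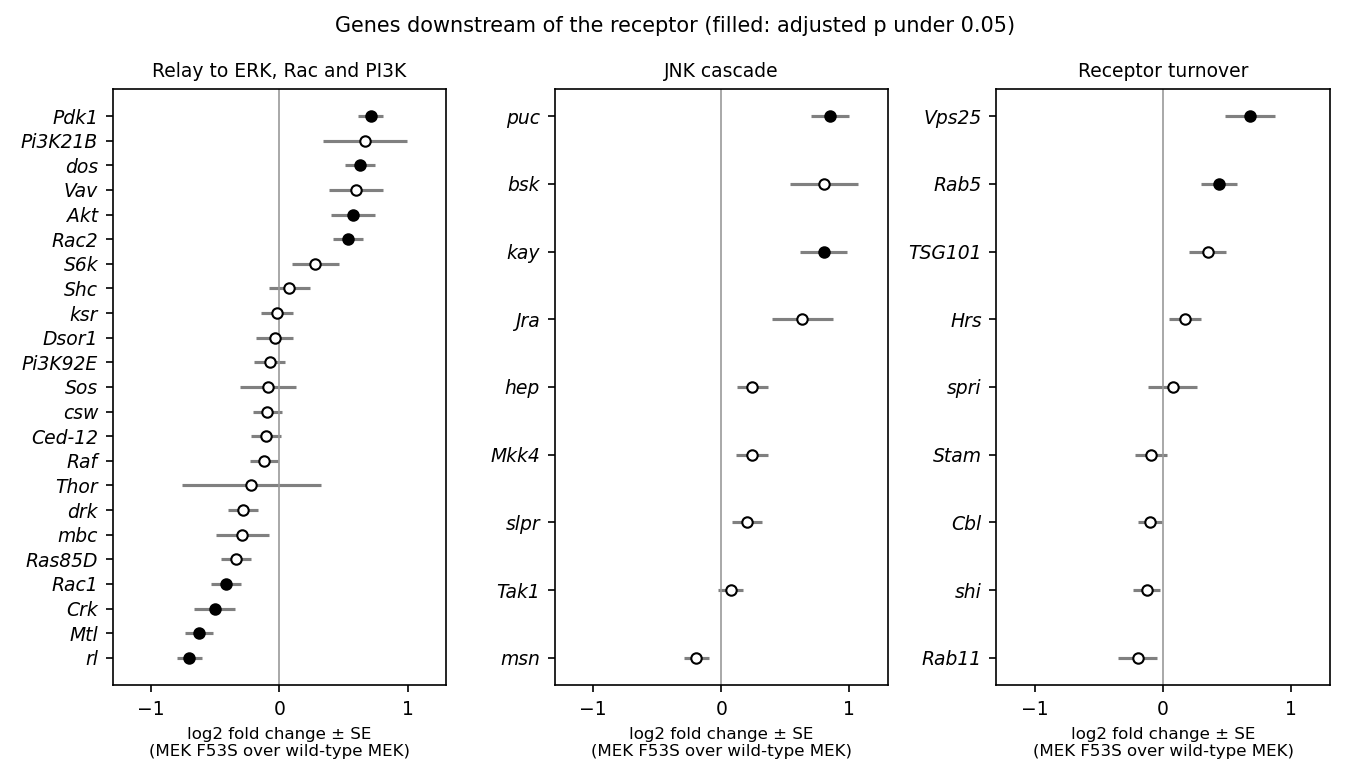
Log2 fold change ± SE (MEK F53S over wild-type MEK) of tested genes, where reported here, of the relay from the receptor (left), the JNK cascade (middle) and receptor turnover (right); filled points have an adjusted p under 0.05. The relay runs from rl at -0.70 to Pdk1 at 0.71, and the called genes of the other lists are puc, kay, Vps25 and Rab5, all above 0.

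Markers of blood cells, follicle cells and other somatic cells were measured beside Pvr, and their part in its difference was not tested. Only 3 blood cell markers, 2 follicle cell markers and 4 of gut, renal tubule and glia had enough counts to be tested. Calls among so few genes stand beside 12.3% of all tested genes called higher and 12.9% called lower. Of 14 blood cell markers 7 were at 0 in every library, namely Hml, He, NimC1, eater, PPO1, Pxn and Ppn. The list summed to 131 to 189.6 TPM with MEK F53S and 115.3 to 190.1 TPM with wild-type MEK, nearly all of it from crq, a scavenger receptor gene, at 149 ± 29.2 TPM in MEK F53S and 140 ± 42.5 TPM in wild-type MEK (adjusted p = 0.751 with edgeR). The GATA factor gene srp was the 1 called marker of 3 tested (13.4 ± 1.43 CPM in MEK F53S and 4.61 ± 2.42 CPM in wild-type MEK, log2 fold change 1.55 ± 0.39 SE, adjusted p = 0.0177), a call lost without MEK F53S replicate 3 (adjusted p = 0.0596). The remaining tested marker, lz, went the other way, with 8 counts with MEK F53S and 67 with wild-type MEK. It was not called (log2 fold change -3.26 ± 1.47 SE, adjusted p = 0.132 with edgeR). Of 23 follicle cell markers 14 were at 0 in every library, and the list summed to 0.604 to 4.79 TPM with MEK F53S and 0.881 to 3.48 TPM with wild-type MEK. The border cell gene slbo had 23 counts with MEK F53S, all in replicate 3, and 0 with wild-type MEK, and ct had 0 counts with MEK F53S and 55 with wild-type MEK. Vm34Ca and psd also had counts only with MEK F53S (15 and 8). Counts only with wild-type MEK were also seen for tj, Fas3, Cp15 and Yp3 (5, 4, 3 and 33). Vm34Ca reached 2.42 TPM in MEK F53S replicate 3, a large part of the highest sum of the list. The call of ct as lower (adjusted p = 0.023) did not hold without MEK F53S replicate 1 or 3 or wild-type MEK replicate 2 or 3 (adjusted p up to 0.0929). Of 4 tested markers of gut, renal tubule and glia 0 were called in either direction, with 0 at an unadjusted p under 0.05 and 0 with DESeq2 or limma, and their list summed to 79.5 to 86.5 TPM with MEK F53S and 74.6 to 82.1 TPM with wild-type MEK, mostly from Myo31DF. Without MEK F53S replicate 2, 1 blood cell marker and 1 of these markers were called lower, and without wild-type MEK replicate 1, 2 follicle cell markers were.

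Of the 3 genes next to Pvr that had enough counts to be tested, none had a difference of similar size. Such differences were rare, as 32 of all 7539 tested genes had a log2 fold change of at least 6. Snx6, a sorting nexin gene 238 bases away, stood at 91.5 ± 12.5 CPM in MEK F53S and 73.2 ± 8.28 CPM in wild-type MEK (log2 fold change 0.32 ± 0.15 SE, adjusted p = 0.142 with edgeR), and limma on log2(TPM + 1) called it higher (0.41, adjusted p = 0.0472). Spn28F, a serpin gene 535 bases away on the other side, had 0 counts in all 6 libraries. Of 10 nearest genes, 9 are in the tables and 3 had enough counts to be tested. None of the 3 was called by edgeR in either direction, with 0 at an unadjusted p under 0.05, 0 with DESeq2 and 1 with limma. Over all tested genes edgeR called 12.3% higher and 12.9% lower, so 3 genes are too few to set the locus apart. CG8353 and CG8360, the other 2 tested, averaged under 3 CPM in both groups. No exon of Pvr is shared with another annotated gene.

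Around Pvf1 the genes next to it on both sides fell. CG7101, 558 bases upstream, fell to 50.03 ± 4.94 CPM in MEK F53S, against 81.9 ± 16.5 CPM in wild-type MEK (log2 fold change -0.71 ± 0.17 SE, adjusted p = 0.015 with edgeR). The gene htk, 761 bases downstream, fell to 82.1 ± 10.9 CPM in MEK F53S, against 126 ± 4.76 CPM in wild-type MEK (-0.62 ± 0.13 SE, adjusted p = 0.00889). Of 7 tested neighbours 1 rose (CG7322, log2 fold change 1.26, adjusted p = 0.0163), 3 fell and 3 did not pass, beside 12.3% of all tested genes called higher and 12.9% called lower. The other fall was that of CG7058, with 0 counts in every MEK F53S library and 0.399 ± 0.124 CPM with wild-type MEK. The call of htk was lost without MEK F53S replicate 3 (adjusted p = 0.0526). Those of CG7101 and CG7322 were lost without MEK F53S replicate 1 or wild-type MEK replicate 2, CG7101 also without MEK F53S replicate 3 and CG7322 also without wild-type MEK replicate 3, with adjusted p up to 0.0702 and 0.0635. CG7058 was called without MEK F53S replicate 2 or wild-type MEK replicate 1, and lost when any of the other 4 libraries was left out (adjusted p up to 0.108).

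Of the 12 genes around Pvf2 and Pvf3, 6 are in the tables and 4 were tested. Of these 4, 1 fell and 3 did not pass, beside 12.3% of all tested genes called higher and 12.9% called lower. Mnn1, the fly menin gene, fell to 203 ± 32.3 CPM in MEK F53S, against 319 ± 11.6 CPM in wild-type MEK (log2 fold change -0.65 ± 0.13 SE, adjusted p = 0.00643 with edgeR), a call kept in all 14 alternatives. Nuf2, a kinetochore gene, and Sem1 were tested and not called (log2 fold changes 0.06 and 0.65), though limma on log2(TPM + 1) called Sem1 higher (0.68, adjusted p = 0.04). Ugt307A1, whose exons cover 0.523% of those of Pvf2 on the other strand, had 0 counts in every library, as had Mst27D.

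**Figure D4:**
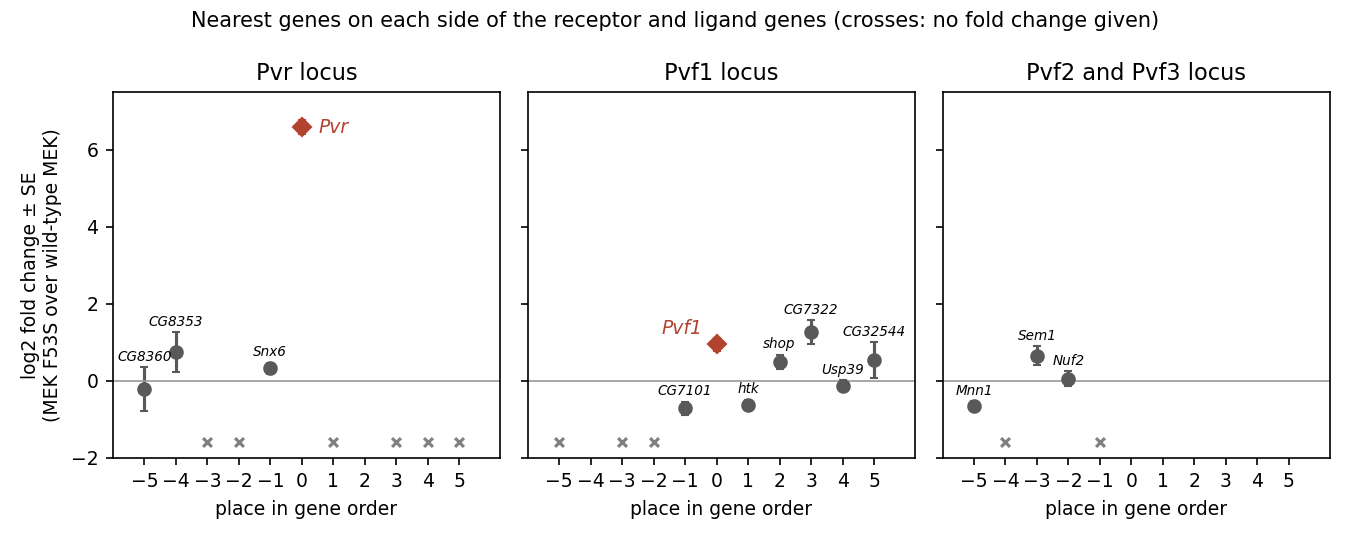
Log2 fold change ± SE (MEK F53S over wild-type MEK) of the nearest genes, where reported here, around Pvr, Pvf1 and the pair of Pvf2 and Pvf3, by place in gene order; diamonds are Pvr and Pvf1 at place 0, and crosses are genes in the tables for which no fold change is given. Pvr, at 6.59, contrasts with Snx6 at 0.32, while Pvf1, at 0.95, lies between CG7101 at -0.71 and htk at -0.62.

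The genes whose profile over the 6 libraries was most like that of Pvr were also near absent with wild-type MEK. Likeness was the Euclidean distance between profiles of log2(CPM + 0.5), each centred on its wild-type MEK mean, and its median over tested genes was 10.5. The nearest was bark, which acts at junctions between epithelial cells, at a distance of 0.847, with 66.2 ± 19.3 CPM in MEK F53S and 0.640 ± 0.262 CPM in wild-type MEK. Next came Kr-h1, whose zinc finger protein acts in juvenile hormone responses, at 1.15, with 77.6 ± 15.7 CPM in MEK F53S and 0.250 ± 0.125 CPM in wild-type MEK. Prosalpha1R, Nepl19 and FBgn0003328, which had no symbol in the table used, followed at 1.56, 1.73 and 2.31. The SD of Prosalpha1R in MEK F53S was 25.1 CPM around a mean of 40.1 CPM, a wider spread than that of Pvr, and reads that it may share with related genes were not checked. These genes were picked for likeness in the same contrast and are a description.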

How the data were processed

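The submitters' processing notes name Salmon 0.8.2 and the build dm6. Per the labels' protocols, libraries were directional; for the quantification, annotation, strand and bias settings were not given in the sources used here. Each library has 1 table of 13943 features. Its estimated counts, per the file headers, are reads assigned by the authors without scaling for depth. Its TPM values, also deposited by the authors, are scaled for length and depth. Positions came from an Ensembl annotation in dm6 coordinates, and 13831 features had a symbol. Of 131 list symbols, 127 were matched.

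Counts were rounded, filtered with filterByExpr (minimum count 10, minimum total 15), scaled with TMM factors and compared with edgeR's quasi-likelihood test (edgeR 4.0.16, R 4.3.3) over 7539 genes, with no covariate and Benjamini-Hochberg adjustment over all of them. The deposited effective lengths were replaced by lengths recomputed from counts, TPM and the constant of each library. Alternatives were upper-quartile and DESeq2 size factors, no filter, DESeq2 1.42.0, limma 3.58.1 on log2(TPM + 1) and log2(TPM + 0.5), the recomputed lengths as an offset, a replicate block, and each library left out. The TPM for limma were used as deposited, with no TMM factors. Replicates differed by more than sampling noise (chi-square divided by its degrees of freedom 29.4 or above).

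Members and gene lists were chosen with earlier results of these data known. Genes named were drawn from the members, called list genes (up to 6 a direction), receptors and ligands of at least 1 TPM, the 5 nearest genes a side, and the 5 most like Pvr. Not every gene that meets this rule is named in the text. Dsor1, Egfr, Ror, Nrk, Ptth, Cbl, slbo and the uncalled marker genes were named outside that rule, after their values were seen. Of the tested genes, 2 that enter the counts are not reported here by name or plotted. Sequences were not analysed here.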

Additional observations from a re-analysis of the deposited data

How the results depend on the processing

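The log2 fold change of Pvr lay between 6.49 and 6.69 and that of Pvf1 between 0.77 and 1.03 when each library was left out, and other count scalings, DESeq2 and the length offset moved both by less than the replicate spread. With limma, Pvr was at 5.13 on log2(TPM + 1) and 5.69 on log2(TPM + 0.5), scales that shrink changes of genes near 0. The TPM given to limma also carried no TMM factors, unlike the counts given to edgeR. What this did to the calls was not tested. Over all genes edgeR called 930 higher and 970 lower, while limma called 1049 higher and 572 lower with a pseudocount of 1, and 566 lower with 0.5. With each library left out, 423 to 1304 were higher and 506 to 1310 lower. In the relay list the falls numbered 3 with upper-quartile factors, 2 with either limma scale and 2 with the length offset. The JNK list had 4 rises with upper-quartile factors, no filter, DESeq2 or the length offset. The turnover list had 1 rise with DESeq2 size factors or the length offset. Other receptors had 1 rise with upper-quartile factors, no filter, DESeq2 or the length offset, and 0 falls with either limma scale. Other ligands had 1 fall with either limma scale or the length offset, and follicle markers 0 falls with no filter or either limma scale. Either limma scale called 1 neighbour of Pvr and 1 of Pvf2 and Pvf3 higher. With each library left out, the relay had 2 to 6 rises and 3 to 7 falls, the JNK list 2 to 4 rises, the turnover list 0 to 2 rises and 0 to 1 falls, and other receptors 1 to 2 falls. Blood cell markers then had 0 to 1 rises and 0 to 1 falls, follicle markers 0 to 2 falls, gut, tubule and glia markers 0 to 1 falls, and neighbours of Pvf1 0 to 1 rises and 0 to 3 falls. The labels do not say whether same-numbered libraries were paired. Such libraries correlated at -0.11, -0.12 and 0.16 in their deviations from group means, and differently numbered ones at -0.21 to 0.25. With 3 libraries a group these values cannot decide whether libraries were paired. A replicate block gave 744 higher and 742 lower genes, 3 falls in the relay, 0 rises in the turnover list, 0 falls among follicle markers and a log2 fold change of 0.31 for Egfr. Signs of uncalled genes also turned for dnt, to 0.050 with upper-quartile factors, and 0.082 and 0.083 with limma, and, with a library left out, for Egfr (-0.79 to 0.63), trk (-0.053 to 0.79), Ptth (-3.98 to 0.22), dnt (-0.078 to 0.083), Nuf2 (-0.060 to 0.24) and CG8360 (-0.48 to 0.0017). The causes of these differences were not tested. At 44 to 51 counts a library, the wild-type MEK level of Pvr limits its fold change, and Pvf2 and Pvf3 were too low to compare.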
